A study of Arabidopsis thaliana with 12 samples.

Results

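Glutathione S-transferases were followed in leaves and roots of *Arabidopsis thaliana* of ecotype Wassilewskija (WS), as seedlings that grew for 11 days on plates of solid Phytagel medium, either on the ISS (spaceflight) or in a ground chamber that replayed the ISS temperature, CO2 and lighting (ground control). The genes are the rows of the deposited tables whose gene name starts with GSTU, GSTF, GSTL, GSTT, GSTZ or DHAR. There are 10 of them among 656 listed genes: 10 of the 608 rows of the leaf table and 0 of the 65 rows of the root table. The tables give the FPKM (fragments mapped to a gene, scaled for transcript length and library size) of each gene in 12 RNA-seq libraries, which form 4 groups of 3: spaceflight leaf, ground control leaf, spaceflight root and ground control root. All groups share the genotype, the medium, the type of growth unit (Veggie) and constant LED light. Each library holds the pooled RNA of 3 plants of a plate. The ground plants grew in a duplicate unit, started later and never left Earth, so growth unit, launch, handling and microgravity cannot be told apart. The titles of the samples give the organ, whereas a material field in the labels exchanges it for ground control leaves and spaceflight roots.

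The organ of the titles was checked on marker genes. BGLU21, a root beta-glucosidase, stood between 521 and 968 FPKM in the 6 root libraries and between 0.34 and 2.12 FPKM in the 6 leaf libraries. LHCB1.2, a light-harvesting protein of leaves, stood between 4437 and 12981 FPKM in leaf libraries and between 69.4 and 235 FPKM in root libraries. Of 19 root markers 1 is in the leaf table and of 23 leaf markers 3 are in the root table, and the other markers were not used here. The study lists a gene for leaf only if spaceflight and ground control leaves differed at least 2-fold at an FDR under 0.05. The leaf difference between treatments was thus used to choose the genes and is given here as a description. The difference between treatments in roots, and the difference between organs averaged over both treatments, were not used for that choice and were tested. The study also kept only genes above 5 CPM (read counts scaled to library size) in at least 3 of all its RNA libraries. GSTL1 and GSTU25 had authors' means under 5 CPM in both leaf groups and so passed through roots, and their organ difference is therefore a description too. GSTU4 had authors' means of 7.28 CPM in spaceflight and 1.38 CPM in ground control leaves. Its spaceflight mean was raised by replicate 3, and CPM per library is unknown. GSTU4 may thus have passed through roots too, and its organ difference is a description as well.

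Glutathione S-transferases join the tripeptide glutathione to reactive or foreign molecules, or carry such molecules as ligands. The tau (GSTU) and phi (GSTF) classes are large in plants and are known for induction by herbicides, oxidized lipids, salicylic acid and other stresses. The lambda class (GSTL) and the dehydroascorbate reductases (DHAR) carry a cysteine in the active site and act as thiol transferases or reductases, and the theta and zeta classes are small and are shared with animals.

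The 10 listed genes came from 3 classes. Of 28 tau genes annotated in TAIR10.1, 6 were listed (GSTU1, GSTU4, GSTU7, GSTU17, GSTU24 and GSTU25). Of 13 phi genes, 3 were listed (GSTF2, GSTF6 and GSTF7), and of 3 lambda genes, 1 was listed (GSTL1). None of the 3 theta, 2 zeta and 3 DHAR genes was in either table. Thus 42 of the 52 annotated genes of the family have no values here. The paper reports more differing genes in each organ than the deposited rows hold, so absence here is not absence from its lists.

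Spaceflight leaves had more phi and less tau transcript among the listed genes. All 3 phi genes, the lambda gene and GSTU4 were higher in every spaceflight leaf library than in every ground control leaf library. GSTU1, GSTU7, GSTU17 and GSTU24 were lower in every spaceflight leaf library, and GSTU25 overlapped. Groups did not overlap for 91.8% of the 608 rows, 68.1% higher and 23.7% lower. The summed FPKM of the 3 phi genes was 855, 980 and 1925 in spaceflight leaves, against 340, 461 and 364 in ground control leaves. The summed FPKM of the 6 tau genes was 138, 141 and 143 in spaceflight leaves, against 349, 335 and 242 in ground control leaves. The tau sums of the 3 spaceflight plates were close to each other, whereas the phi sum of spaceflight plate 3 was far above those of plates 1 and 2. Some tissue markers also differed with the treatment in leaves. LHCB2.2, a light-harvesting gene, stood at 584, 1795 and 1493 FPKM in spaceflight leaves, against 2202, 2536 and 2421 FPKM in ground control leaves, without overlap. BGLU21 stood at 0.82, 1.02 and 2.12 FPKM in spaceflight leaves, against 0.65, 0.34 and 0.42 FPKM in ground control leaves, also without overlap. These values are near the floor, and BGLU21 is in the leaf table because leaves differed. LHCB1.2 and LHCB4.2 overlapped. LHCB4.2 stood at 1201, 2446 and 2532 FPKM in spaceflight leaves, against 2058, 2311 and 2118 FPKM in ground control leaves. The summed FPKM of the 3 light-harvesting markers overlapped, at 6221 to 14152 FPKM in spaceflight leaves and 13678 to 17828 FPKM in ground control leaves. Their part in the leaf values of the glutathione S-transferases was not tested.

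**Figure D1:**
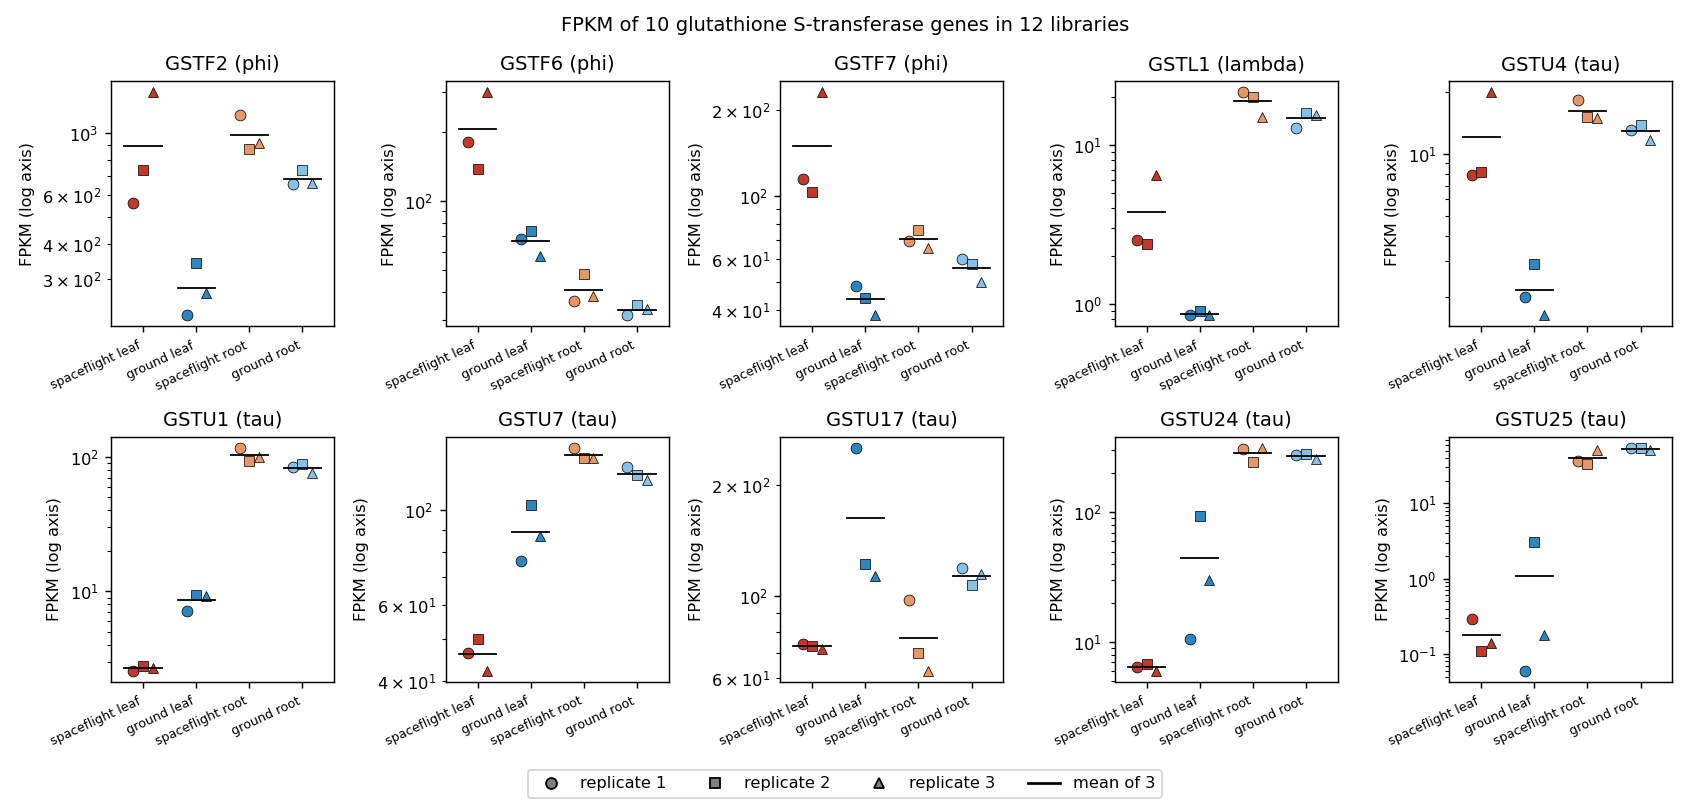
FPKM (log axis) of each of the 10 genes in spaceflight leaf, ground control leaf, spaceflight root and ground control root, 1 point per library with its replicate number as symbol, and the mean of 3 as a line. The phi genes, GSTL1 and GSTU4 sit higher in spaceflight leaves, GSTU1, GSTU7, GSTU17 and GSTU24 lower, GSTU25 overlaps, and GSTU1, GSTU24 and GSTU25 sit far higher in roots than in leaves.

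GSTF2, a phi-class protein known to bind indole compounds such as camalexin and flavonols, was the most abundant of the 10 genes by mean FPKM in each group. It lies on chromosome 4 from 1110343 to 1112033 (TAIR10.1, minus strand). It had 560, 739 and 1394 FPKM in spaceflight leaves, against 223, 343 and 268 FPKM in ground control leaves, a log2 difference of 1.60 ± 0.36 (SE, n = 3 each) on the log2(FPKM + 1) scale used throughout. Its FPKM was 56.2 to 67.2% of the sum of the 10 genes in spaceflight leaves and 32.4 to 44.3% in ground control leaves. The most similar gene of the family is GSTF3, which is in neither table. Their coding sequences are 94.5% identical with an identical run of up to 74 bases, so reads could be split between them. GSTF2 also overlaps the antisense gene AT4G02510.

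GSTF6, which acts in the synthesis of the phytoalexin camalexin, and GSTF7, which is known as a salicylic acid-responsive gene, lie next to each other on the minus strand of chromosome 1, GSTF7 from 658578 to 659980 and GSTF6 from 661088 to 662475. GSTF6 had 181, 139 and 300 FPKM in spaceflight leaves, against 68.1, 74.2 and 57.4 FPKM in ground control leaves (log2 difference 1.55 ± 0.33, SE, n = 3 each). GSTF7 had 115, 103 and 231 FPKM in spaceflight leaves, against 48.5, 43.8 and 38.2 FPKM in ground control leaves (log2 difference 1.67 ± 0.34, SE, n = 3 each). Both genes had their highest value in spaceflight plate 3 and their second highest in plate 1. They were the most similar pair among the 10 genes, with 94.3% identical coding bases and an identical run of up to 116 bases. Before trimming, the study's paired reads were longer than 90 bases, and how many matched both genes was not measured. The first 90 coding bases of the reference are shown because they differ at 1 position only, which is in capitals.
GSTF6: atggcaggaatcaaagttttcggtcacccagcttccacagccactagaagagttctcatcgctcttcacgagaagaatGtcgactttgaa
GSTF7: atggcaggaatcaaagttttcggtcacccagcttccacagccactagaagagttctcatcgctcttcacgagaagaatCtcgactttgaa

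The separation of GSTF6 and GSTF7 rests in part on how RSEM shared any reads that match both, and the organs give a measured contrast between the genes. GSTF6 exceeded GSTF7 in each of the 6 leaf libraries, and GSTF7 exceeded GSTF6 in each of the 6 root libraries.

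GSTL1, a lambda-class gene on chromosome 5 from 630748 to 632792, was near the floor in ground control leaves. It had 2.53, 2.39 and 6.44 FPKM in spaceflight leaves, against 0.85, 0.90 and 0.85 FPKM in ground control leaves (log2 difference 1.26 ± 0.34, SE, n = 3 each). With a pseudocount of 0.1 in place of 1 the log2 difference was 1.86, since the pseudocount of 1 compresses such low values. Without spaceflight leaf replicate 3 it was 0.89, under 2-fold. The authors' mean CPM was 2.66 in spaceflight leaves and 0.630 in ground control leaves. The study's 5 CPM filter, set over all RNA libraries, was thus met by this gene in roots.

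GSTU4 was the only tau gene of the 6 that was higher in spaceflight leaves. It had 7.91, 8.17 and 19.9 FPKM in spaceflight leaves, against 2.02, 2.90 and 1.64 FPKM in ground control leaves. Its log2 difference of 1.93 ± 0.36 (SE, n = 3 each) was the largest upward one among the 10 genes. In spaceflight leaf replicate 3 all 5 higher genes had their highest value of the group, and so did 78.5% of all rows that were higher in spaceflight leaves. Without that library the log2 differences of these 5 genes were 0.89 for GSTL1 and 1.23 to 1.52 for the others.

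GSTU24 and GSTU25 lie next to each other on the plus strand of chromosome 1, from 5869543 to 5870883 and from 5872024 to 5873124, and are known for acting on the explosive TNT. GSTU24 had 6.49, 6.83 and 6.04 FPKM in spaceflight leaves, against 10.6, 94.4 and 30.0 FPKM in ground control leaves. The log2 difference of -2.12 ± 0.57 (SE, n = 3 each) was the largest downward one, and ground control leaf replicate 2 decided much of its size. Without that library it was -1.34, and without ground control leaf replicate 1 it was -2.87. GSTU25 had 0.29, 0.11 and 0.14 FPKM in spaceflight leaves, against 0.06, 3.06 and 0.18 FPKM in ground control leaves. A single ground control library set its mean, and without it the log2 difference of -0.55 ± 0.44 (SE, n = 3 each) became 0.07. The authors' mean CPM of GSTU25 was 0.0992 in spaceflight leaves and 0.634 in ground control leaves.

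GSTU1, a tau gene on chromosome 2 from 12631341 to 12632538, was nearly equal in the 3 spaceflight leaf libraries. It had 2.57, 2.80 and 2.69 FPKM in spaceflight leaves, against 7.11, 9.46 and 9.18 FPKM in ground control leaves (log2 difference -1.37 ± 0.28, SE, n = 3 each). GSTU7, on chromosome 2 from 12617936 to 12618899, had 46.4, 50.0 and 42.2 FPKM in spaceflight leaves, against 76.2, 103 and 87.1 FPKM in ground control leaves. Its log2 difference of -0.92 ± 0.28 (SE, n = 3 each) was under 2-fold on this scale, and with authors' means of 27.0 CPM in spaceflight and 54.1 CPM in ground control leaves it sat just inside the study's 2-fold limit. GSTU7 overlaps the antisense genes AT2G08340 and AT2G29410. GSTU17, also known as ERD9 and linked to light signalling and drought responses, lies on chromosome 1 from 3396883 to 3398358 and overlaps GSTU18 by 71 bases on the same strand. It had 74.2, 73.3 and 72.0 FPKM in spaceflight leaves, against 253, 122 and 114 FPKM in ground control leaves (log2 difference -1.05 ± 0.34, SE, n = 3 each). The spaceflight plates were nearly equal, and without ground control leaf replicate 1, the highest library, the log2 difference was -0.68.

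By limma, with a call at an adjusted p under 0.05 and at least 2-fold, 8 of the 10 genes were called in leaves, against 74.5% of the 608 rows. Of these, 5 were higher and 3 lower in spaceflight, against 58.1% and 16.4% of the rows. GSTU7 passed the p but not the 2-fold limit, and GSTU25 passed neither. Nothing is read from these counts, because the rows had been listed on the same libraries. The median log2 difference was 0.36 over the 10 genes and 1.09 over all rows. Ground control leaf replicate 2 held the highest ground control leaf value for 8 of the 10 genes, against 42.9% of the rows.

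Neighbouring tau genes went both ways. GSTU1 to GSTU7 form a block of 14.6 kb on the minus strand of chromosome 2, of which GSTU7, GSTU4 and GSTU1 are listed. GSTU4 and GSTU1, separated by GSTU3 and GSTU2, are 83.9% identical in their coding bases, and GSTU4 was higher and GSTU1 lower in every spaceflight leaf library. By contrast GSTF7 and GSTF6, with 1107 bases between them, were both higher, and GSTU24, with 1140 bases between it and GSTU25, was lower beside a neighbour with very low values.

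**Figure D2:**
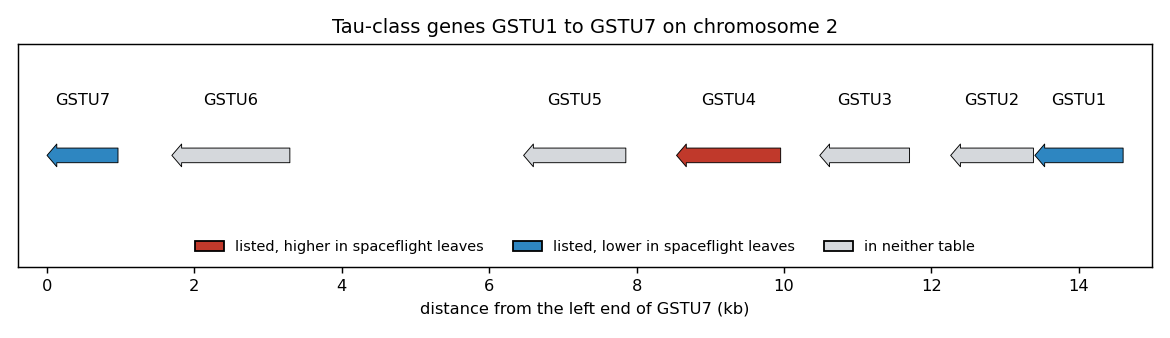
Map of GSTU1 to GSTU7 on chromosome 2 to scale, with distance in kb from the left end of GSTU7 on the horizontal axis and arrows that point in the direction of transcription. GSTU4, in red, was higher in spaceflight leaves, GSTU7 and GSTU1, in blue, were lower, and the 4 genes in grey are in neither table.

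The 250 bases before the annotated gene start were read from TAIR10.1. They are shown for the pair with the lowest and the pair with the highest log2 difference in leaves, on which the genes were listed. A part of these bases in the leaf differences was not tested. Matches on either strand to TGACG (the core of as-1 elements, bound by TGA factors), TTGACC (a W-box, bound by WRKY factors), CACGTG (a G-box) and GAANNTTC (a heat shock element) are in capitals.
GSTU24, chr1:5869293-5869542, plus strand: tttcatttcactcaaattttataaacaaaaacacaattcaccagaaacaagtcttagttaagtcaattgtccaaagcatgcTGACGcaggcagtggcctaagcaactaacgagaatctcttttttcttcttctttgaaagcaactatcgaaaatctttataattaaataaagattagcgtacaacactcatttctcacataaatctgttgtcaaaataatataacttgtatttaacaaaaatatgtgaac
GSTU1, chr2:12632539-12632788, minus strand: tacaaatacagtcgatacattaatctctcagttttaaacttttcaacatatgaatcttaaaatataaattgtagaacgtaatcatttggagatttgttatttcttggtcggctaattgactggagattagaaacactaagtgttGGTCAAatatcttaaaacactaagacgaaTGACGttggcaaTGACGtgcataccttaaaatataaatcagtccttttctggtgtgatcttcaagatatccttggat
GSTU4, chr2:12627892-12628141, minus strand: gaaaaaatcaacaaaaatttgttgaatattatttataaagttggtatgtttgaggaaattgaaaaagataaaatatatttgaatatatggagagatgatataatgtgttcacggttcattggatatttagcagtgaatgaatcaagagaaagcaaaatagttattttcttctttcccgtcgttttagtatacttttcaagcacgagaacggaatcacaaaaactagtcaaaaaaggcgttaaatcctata
GSTF7, chr1:659981-660230, minus strand: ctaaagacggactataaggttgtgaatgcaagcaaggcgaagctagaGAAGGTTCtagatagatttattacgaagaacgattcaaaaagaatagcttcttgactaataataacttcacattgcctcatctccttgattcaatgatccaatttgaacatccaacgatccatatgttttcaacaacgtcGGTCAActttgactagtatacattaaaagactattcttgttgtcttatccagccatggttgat

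TGACG was found before 4 of the 10 genes and in 18.6% of the 27443 promoters of protein-coding genes read in the same way. All 4 were tau genes that were lower on average in spaceflight leaves, GSTU1, GSTU7, GSTU24 and GSTU25. The leaf groups of GSTU25 overlapped, and its log2 difference turned to 0.07 without ground control leaf replicate 2. These directions come from the leaf values used to list the genes. None of the 5 genes that were higher held TGACG. GSTU1 held it from 77 to 73 and from 65 to 61 bases before the start, and GSTU7 held 3 matches between 61 and 45 bases before the start, the last 2 of which overlap. TTGACC was before 4 genes (GSTL1, GSTF7, GSTU1 and GSTU7) and in 12.2% of promoters, and stood on both sides of the leaf response, with 2 of 5 higher and 2 of 5 lower genes. CACGTG was before GSTF6 and GSTU17 (6.49% of promoters), and GAANNTTC before GSTL1, GSTF7 and GSTU25 (9.55% of promoters). The reference is Columbia, so these letters may differ in WS, and a match describes the sequence only.

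In roots, differences between treatments were small. No gene of the 10 was called (limma, adjusted p under 0.05 and at least 2-fold), against 0.164% of the 608 rows, which is a single row, and 5 of the 10 had an unadjusted p under 0.05, against 27.3% of the rows. GSTF2 had 1159, 872 and 919 FPKM in spaceflight roots, against 653, 735 and 664 FPKM in ground control roots, a log2 difference of 0.51 (95% interval 0.19 to 0.83, limma adjusted p = 0.0768). GSTF7 had 69.8, 76.2 and 65.7 FPKM in spaceflight roots, against 59.9, 57.6 and 49.9 FPKM in ground control roots (log2 difference 0.33, limma adjusted p = 0.111). The spaceflight and ground control roots did not overlap for either gene, but neither difference passed after adjustment.

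GSTU17 had 97.9, 70.2 and 62.8 FPKM in spaceflight roots, against 119, 107 and 115 FPKM in ground control roots. Its log2 difference of -0.58 (95% interval -1.001 to -0.17, limma adjusted p = 0.0993) was the lowest of the 10 in roots, where it was also the only gene with every spaceflight library below every ground control library. GSTF6, GSTU1, GSTU4 and GSTU7 were, like GSTF2 and GSTF7, higher in every spaceflight root library, with log2 differences of 0.27, 0.32, 0.30 and 0.15 (limma adjusted p = 0.224, 0.145, 0.169 and 0.30). Groups thus did not overlap for 7 of the 10 genes, 6 higher and 1 lower, against 30.4% of the rows, 19.1% higher and 11.3% lower. The median log2 difference was 0.29 over the 10 genes and 0.04 over all rows. GSTU24 had 307, 244 and 315 FPKM in spaceflight roots, against 279, 282 and 256 FPKM in ground control roots (log2 difference 0.08, 95% interval -0.23 to 0.38, limma adjusted p = 0.752). GSTL1 (0.33, adjusted p = 0.246) and GSTU25 (-0.41, adjusted p = 0.182) overlapped as well.

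The same spaceflight roots held more transcript of the 3 leaf markers in the root table, which lists genes because they differed there. LHCB1.2 stood at 158, 235 and 97.7 FPKM in spaceflight roots, against 76.9, 76.1 and 69.4 FPKM in ground control roots. The ranges of the summed FPKM of LHCB1.2, LHCB2.2 and LHCB4.2 were likewise apart, at 144 to 344 FPKM in spaceflight roots and 102 to 111 FPKM in ground control roots. Their part in the root values of the glutathione S-transferases was not tested. In bulk tissue, fewer cells of a type and less RNA per cell cannot be told apart. The spaceflight difference itself, set between organs, passed for 8 of the 10 genes (limma adjusted p under 0.05), against 75.8% of the rows. It was higher in leaf for 5, against 57.2%, and lower in leaf for 3, against 18.6%, and since its leaf term chose the genes nothing is read from these counts.

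**Figure D3:**
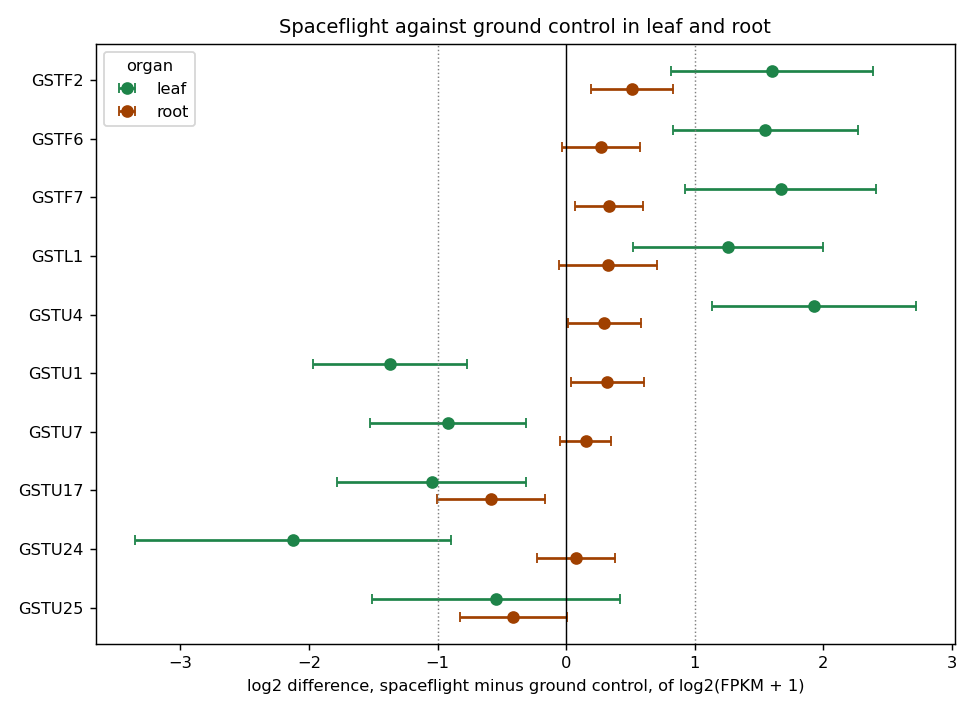
Log2 difference of log2(FPKM + 1), spaceflight minus ground control, of the 10 genes in leaf and root, with 95% limma intervals and dotted lines at 2-fold. Leaf differences run from -2.12 for GSTU24 to 1.93 for GSTU4, whereas root differences stay between -0.58 and 0.51, and the leaf values are a description because the genes were listed on them.

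Between organs, averaged over both treatments, 6 of the 10 genes were called, against 64% of the 608 rows, a share close to that of all rows. Of these, 5 genes were lower in leaves than in roots (GSTU25, GSTU24, GSTU1, GSTL1 and GSTU4), against 38.2% of the rows, and 1 was higher (GSTF6), against 25.8% of the rows (limma, adjusted p under 0.05 and at least 2-fold). GSTU25 and GSTL1 had passed the study's filter through roots, where they are high, so their place among the lower genes is a description. Of the 8 other genes, 3 were called lower in leaves and 1 higher. These 3 are GSTU24, GSTU1 and GSTU4, which may have passed through roots as well, so their place is a description too. The median log2 difference between leaf and root was -1.16 over the 10 genes and -0.32 over all rows. Groups did not overlap between organs for 6 genes, against 53.3% of the rows.

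GSTU25 was near 0 in leaves and not in roots. Against its leaf values of 0.06 to 3.06 FPKM stood 36.6, 32.7 and 51.3 FPKM in spaceflight roots and 54.5, 53.6 and 50.5 FPKM in ground control roots, a log2 difference between leaf and root of -5.04 ± 0.27 (SE, 12 libraries), given without a test. GSTU24 had 6.04 to 94.4 FPKM in the 6 leaf libraries, against 244 to 315 FPKM in the 6 root libraries. Its log2 difference was -4.17 ± 0.36 (SE, 12 libraries), given without a test. GSTU1 had 2.57 to 9.46 FPKM in leaves, against 117, 94.0 and 101 FPKM in spaceflight roots and 83.8, 88.9 and 75.7 FPKM in ground control roots. Its log2 difference of -3.98 ± 0.13 (SE, 12 libraries), given without a test, had the smallest error of these root-rich genes.

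Changes of the root to leaf ratio with treatment contain the leaf difference on which the genes were listed, and are a description. The root to leaf ratio of mean FPKM of GSTU1 and GSTU24 was wider in spaceflight than in ground control. It was 38.7 in spaceflight and 9.64 in ground control for GSTU1, and 44.7 in spaceflight and 6.06 in ground control for GSTU24. The ground control ratio of GSTU24 was 13.4 without ground control leaf replicate 2, an alternative chosen after seeing the data. For GSTL1 and GSTU4, which were higher in spaceflight leaves, the ratio was narrower in spaceflight. It was 4.98 in spaceflight and 17.0 in ground control for GSTL1, which had a log2 difference between leaf and root of -2.60 ± 0.19 (SE, 12 libraries), given without a test. It was 1.34 in spaceflight and 5.88 in ground control for GSTU4, with a log2 difference of -1.32 ± 0.21 (SE, 12 libraries), given without a test. In spaceflight, GSTU4 in leaf plate 3 (19.9 FPKM) exceeded its 3 root libraries (18.3, 15.04 and 14.85 FPKM), which none of its other leaf libraries did.

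GSTF6 was the only one of the 10 that was higher in leaves at 2-fold, with 57.4 to 300 FPKM in the 6 leaf libraries, against 31.6 to 47.8 FPKM in the 6 root libraries (log2 difference 1.60 ± 0.18, SE, limma adjusted p = 8.25e-07). Its leaf to root ratio of mean FPKM was 5.05 in spaceflight and 1.99 in ground control. GSTF7, its close copy, changed its order with the treatment, again a description, since the leaf difference was used to list the gene. In spaceflight its 3 leaf libraries lay above its 3 root libraries, whereas in ground control its leaf libraries, at 38.2 to 48.5 FPKM, lay below its root libraries, at 49.9 to 59.9 FPKM. Averaged over treatments its log2 difference between leaf and root was 0.31 (95% interval -0.09 to 0.71, limma adjusted p = 0.130). Over both treatments, GSTF2 was lower in leaves (log2 difference -0.77 ± 0.20, SE, limma adjusted p = 0.00284) without reaching 2-fold. So was GSTU7 (-0.99 ± 0.13, SE, limma adjusted p = 3.56e-06), which crossed 2-fold at a pseudocount of 0.1. For GSTF2 the organs overlapped in spaceflight, at 560 to 1394 FPKM in leaves and 872 to 1159 FPKM in roots. In ground control its leaf libraries, at 223 to 343 FPKM, lay below its root libraries, at 653 to 735 FPKM. That change with treatment is again a description. GSTU17 had a log2 difference of 0.18 (95% interval -0.23 to 0.60, limma adjusted p = 0.384), and its value without ground control leaf replicate 1 was 0.0013.

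**Figure D4:**
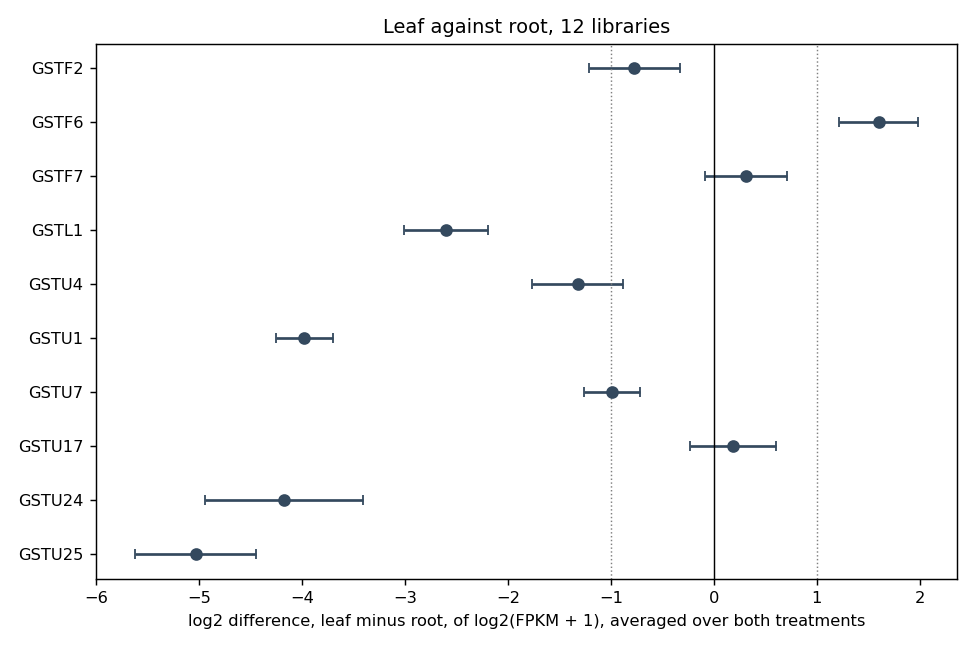
Log2 difference of log2(FPKM + 1), leaf minus root, averaged over spaceflight and ground control, for the 10 genes over 12 libraries with 95% limma intervals and dotted lines at 2-fold. GSTU25, GSTU24 and GSTU1 lie between -5.04 and -3.98, and GSTF6 at 1.60 is the only gene past 2-fold on the leaf side. The values of GSTU25 and GSTL1 are a description, since these genes passed the study's filter through roots, as GSTU4, GSTU1 and GSTU24 may have done.

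By mean FPKM, GSTF2 led in all 4 groups. In roots it was followed by GSTU24 and GSTU7 in both treatments, and GSTL1 and GSTU4 came last. In spaceflight leaves GSTF6 and GSTF7 came next, whose libraries overlapped, followed by GSTU17 and GSTU7. In ground control leaves GSTU17, GSTU7 and GSTF6 came next, with GSTU17 overlapping GSTF2. The low end of the leaf order did not separate in ground control, where GSTU4, GSTU25 and GSTL1 overlapped each with the next, whereas in spaceflight GSTU25 lay below all others.

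Of 29 other genes of glutathione synthesis, turnover, reduction and transport, 1 was listed for leaf and 0 for root. GPX7, a putative chloroplast glutathione peroxidase, had 7.13, 7.14 and 8.93 FPKM in spaceflight leaves, against 27.9, 12.6 and 12.4 FPKM in ground control leaves (log2 difference -0.998 ± 0.34, SE, n = 3 each). It stood at 0.65 FPKM or less in each of the 6 root libraries, so it will have met the study's 5 CPM filter through leaves. Unlike GSTU1, GSTU7 and GSTU24, it was higher in leaves than in roots. Its log2 difference between leaf and root of 3.37 ± 0.21 (SE, 12 libraries) is therefore a description, given without a test.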

How the data were processed

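Leaf and root RNA of 3 spaceflight and 3 ground control plates was sequenced. After FastQC and Trimmomatic, the authors aligned reads by STAR to TAIR10, and RSEM gave gene values (versions: not given in the sources used here). FPKM were deposited per library, the unit being inferred from the methods and the values, since the headers do not name it. Counts were not used here, so depth is unknown. The deposited mean CPM of each group are the authors' means. The deposited log2 fold changes and p-values of their edgeR model were not used. The paper and labels name different library kits, 1 of them without strand.

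log2(FPKM + 1) was fitted over all 608 leaf table rows with limma 3.58.1 in R 4.3.3, two-sided, Benjamini-Hochberg adjusted. Each organ was fitted alone, and the organ difference on 4 group means of 12 libraries. Within an organ, the p-values measure the spread between plates. For contrasts between organs they took all 12 libraries as independent, though leaf and root libraries share plates. Alternatives were a pseudocount of 0.1, a minimum mean of 1 FPKM in a group, a variance trend, a replicate block and each library left out. For contrasts between organs the block joined leaf and root columns of a number, which name 1 plate. Their deviations from group means correlated at -0.0282 to 0.422. Within an organ the block joined spaceflight and ground control libraries of a number, which are different plates. All listed members were named. Members and lists were chosen with earlier results of these data known. Scripts were tested on simulated data. Positions and sequences are from RefSeq TAIR10.1, which matched all 10 genes; motifs used Python 3.11.15, and coding alignments Biopython 1.88. Protein sequences were not used here; coding starts were shown instead, a choice made after seeing the data.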

Additional observations from a re-analysis of the deposited data

Results flagged for a closer look

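The spaceflight difference was tested between leaf and root, as the leaf minus the root log2 difference, in the 12 libraries. It passed for 8 of the 10 genes (limma adjusted p under 0.05), against 75.8% of the 608 rows, and its leaf term had been used to list the genes. The difference was 1.63 for GSTU4, 1.34 for GSTF7, 1.28 for GSTF6, 1.09 for GSTF2 and 0.93 for GSTL1, and thus higher in leaf for these 5. It was -2.20 for GSTU24, -1.69 for GSTU1 and -1.07 for GSTU7. It did not pass for GSTU17 (-0.46, 95% interval -1.30 to 0.37, limma adjusted p = 0.271), which had lower means in spaceflight in both organs, nor for GSTU25 (-0.13, limma adjusted p = 0.820). With leaf and root of a plate kept together as a replicate block, GSTL1 no longer passed (limma adjusted p = 0.0567).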

How the results depend on the processing

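Without ground control leaf replicate 2, the leaf difference of GSTU25 turned to 0.074, within a range of -0.89 to 0.074 over left-out libraries. The leaf minus root difference of its spaceflight effect turned to 0.49 without that library and to 0.05 without spaceflight root replicate 3, within a range of -0.48 to 0.49. The cause was not tested. The count of genes whose spaceflight difference was higher in leaf than in root was 5 and ranged from 3 to 5 over the left-out libraries, GSTL1 and GSTF2 being those that did not pass, and it was 4 with the replicate block. Within an organ, where the block joined spaceflight and ground control libraries of a number, it gave 5 higher and 3 lower genes in leaf and 0 in root. With leaf and root of a plate joined, it gave 1 higher and 5 lower in leaf than in root averaged over treatments. The block changed no other call. Counts in leaf ranged from 4 to 5 higher and stayed at 3 lower over left-out libraries, though without ground control leaf replicate 1 GSTU7 took the place of GSTU17, and the genes lower in leaf than in root from 5 to 6. Leaving out each ground control leaf library, a choice made after seeing the data, gave a ground control root to leaf ratio of 4.38 to 13.4 for GSTU24. A fit on the root table was not possible, since no glutathione S-transferase is listed there. Depth is unknown, and values near 0, as of GSTU25 and GSTL1 in leaves, depend most on the pseudocount.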
